A study of Rattus norvegicus with 36 samples.

Results

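Mast cell transcripts were followed in rat mammary glands through 6 genes: Fcer1a and Ms4a2, which encode chains of the high-affinity IgE receptor, Cpa3, Cma1 and Tpsab1, which encode granule proteases, and Hdc, which encodes the enzyme that makes histamine. The genes were taken as every probe set of the array whose platform gene symbol is one of these 6 names. This gave 7 probe sets of the 31099 in the deposited table, 2 of them for Ms4a2 and 1 for each other gene, and 6 genes of 14217 with a symbol. Mammary glands were collected from rats of the strains Cop and F344 that had received N-nitrosomethylurea (NMU), a carcinogen that alkylates DNA, or a saline control treatment, at 55 days of age. The glands were taken 6 h, 1 d or 30 d after treatment, which gives 12 groups of 3 arrays: Cop NMU, Cop control, F344 NMU and F344 control glands at each time. Cop rats are known for resistance to chemically induced mammary cancer and F344 rats for susceptibility. No transgene or deletion is named for any group. The labels call the replicates biological and do not say whether each array is a separate animal, so that p-values measure the spread between these arrays.

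Mast cells are long-lived immune cells of connective tissue, and in the mammary gland they lie in the fatty stroma, along vessels and around ducts. Their granules hold proteases and histamine bound to the proteoglycan serglycin, and are released when antigen binds IgE on the surface receptor. The receptor has an alpha chain that binds IgE (Fcer1a), a beta chain that amplifies the signal (Ms4a2) and a gamma chain shared with other Fc receptors (Fcer1g). Chymase (Cma1), carboxypeptidase A3 (Cpa3) and tryptase (Tpsab1) are the proteases typical of connective tissue mast cells in rodents. Basophils also carry the IgE receptor and Hdc. A gland sample holds all its cell types, and fewer mast cells cannot be told apart from less of these RNAs per mast cell.

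The promoters of the genes are shown because the members moved together across arrays, and because GATA factors, with Gata2 among the transcripts measured here, are known regulators of mast cell genes. RefSeq, with the build GRCr8, gave a promoter for 5 of the 6 genes, and Ms4a2 had no entry in the table used. The 250 bases before each annotated start are given 5′ to 3′ on the strand of the gene, and capitals mark GATAA, searched on both strands and therefore also written TTATC. For Fcer1a and Cpa3 the start used lies inside the annotated gene, which reaches to 88224723 and 104673253. Part of their windows is therefore within the gene.
Fcer1a, chr13:88224680-88224929, minus strand: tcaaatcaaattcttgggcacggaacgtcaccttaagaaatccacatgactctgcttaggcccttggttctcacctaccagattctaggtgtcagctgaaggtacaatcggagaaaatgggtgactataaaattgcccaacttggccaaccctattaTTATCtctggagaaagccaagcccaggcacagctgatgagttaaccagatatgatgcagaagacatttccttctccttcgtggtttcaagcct
Cpa3, chr2:104673238-104673487, minus strand: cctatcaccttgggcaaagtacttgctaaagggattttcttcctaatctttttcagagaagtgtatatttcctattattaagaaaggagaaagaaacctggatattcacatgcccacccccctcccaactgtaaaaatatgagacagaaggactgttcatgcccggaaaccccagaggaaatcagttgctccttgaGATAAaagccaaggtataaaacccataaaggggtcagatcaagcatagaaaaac
Cma1, chr15:33390134-33390383, minus strand: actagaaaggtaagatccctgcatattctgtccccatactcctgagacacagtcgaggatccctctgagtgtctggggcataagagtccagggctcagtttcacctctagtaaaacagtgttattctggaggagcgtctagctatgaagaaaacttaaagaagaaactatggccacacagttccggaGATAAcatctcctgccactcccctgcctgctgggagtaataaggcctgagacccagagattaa
Tpsab1, chr10:14867303-14867552, minus strand: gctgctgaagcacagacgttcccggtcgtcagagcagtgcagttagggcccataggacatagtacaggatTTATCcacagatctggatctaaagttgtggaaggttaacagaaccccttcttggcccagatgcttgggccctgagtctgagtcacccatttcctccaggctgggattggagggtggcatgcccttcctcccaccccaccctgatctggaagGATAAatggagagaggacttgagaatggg
Hdc, chr3:134318705-134318954, minus strand: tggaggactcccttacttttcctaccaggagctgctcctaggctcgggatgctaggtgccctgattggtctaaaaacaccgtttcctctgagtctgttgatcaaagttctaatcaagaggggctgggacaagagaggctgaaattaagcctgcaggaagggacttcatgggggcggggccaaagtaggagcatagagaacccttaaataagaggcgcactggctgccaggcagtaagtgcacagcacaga
GATAA or TTATC was present in the windows of 4 of 5 members, against 23.5% of 33469 rat promoter windows of the same length. It began 93 bases before the start of Fcer1a, 54 before that of Cpa3 and 63 before that of Cma1. In Tpsab1 it began 180 and 29 bases before the start, and the Hdc window held none. Of 5 further genes of mast cells or of like pattern, the window of Mcpt1l1 held it, 102 bases before the start, and those of Tpsb2, Milr1, Gata2 and Kit did not. CACATG or its reverse complement CATGTG, an E-box, was present in 2 of 5 members, against 12.1% of all promoter windows. These matches describe the letters only, and binding was not measured.

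Values are the authors' log2 expression values per probe set, so a difference of 1 is a doubling. Of the 7 probe sets, 6 passed the filter on dim probe sets, which kept a probe set only if 3 or more arrays held it above their own 40th percentile. The second Ms4a2 probe set was above that level on 2 arrays and was not tested. Its group means lay between 3.85 in F344 NMU glands at 30 d and 4.80 in Cop NMU glands at 1 d. After NMU its Cop mean was above its F344 mean at each time, but the strains' arrays overlapped at 1 d and 30 d. In control glands its Cop mean was below its F344 mean at 6 h and 1 d (4.16 against 4.22 at 1 d). At 30 d the Cop control mean was the higher. At 30 d its mean was higher after NMU in Cop glands and lower in F344 glands. Its values were dim, and every Ms4a2 result below is that of the other probe set. The tested probe sets passed on 36 of 36 arrays for Cpa3, Cma1 and Hdc, 32 for Tpsab1, 31 for Ms4a2 and 25 for Fcer1a. The lowest values of Tpsab1, Ms4a2 and Fcer1a therefore lay at or below that level of their arrays. Over all 36 arrays Tpsab1 spanned 4.05 log2 units, Fcer1a 2.89 and Hdc 1.48. Array medians lay between 5.66 and 5.76, and precision is set by how many arrays there were. Whether the probes for Tpsab1 and Cma1 also read near-identical members of the tryptase and chymase families could not be checked here.

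**Figure D1:**
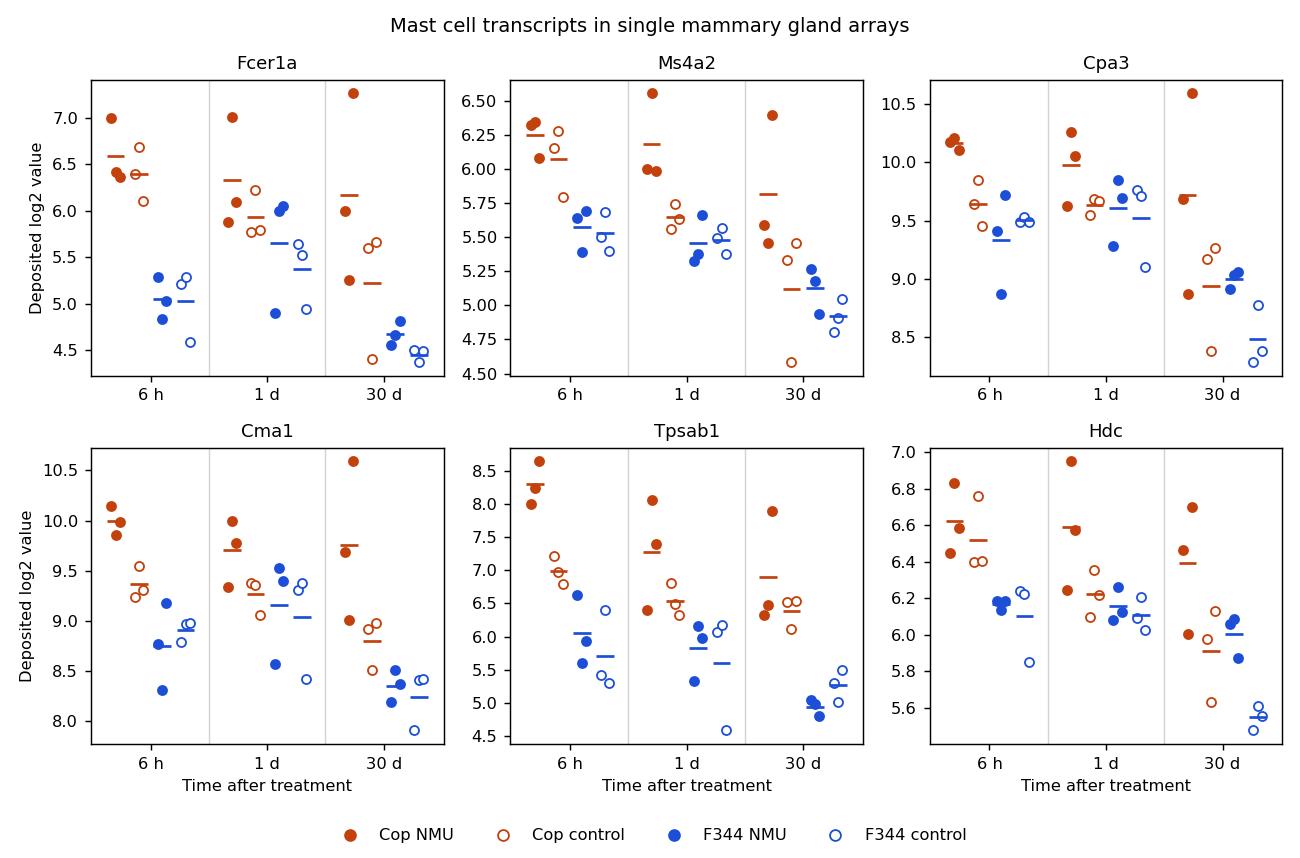
Deposited log2 value (vertical axis) of each member gene by time after treatment (horizontal axis), 1 panel per gene; points are arrays, with Cop in orange and F344 in blue, NMU filled and control open, and short bars are group means (n = 3). Cop NMU glands at 6 h have the highest mean for all 6 genes, and the F344 glands at 30 d hold the lowest.

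The order of the 12 groups was alike for the 6 genes at its ends. Cop NMU glands at 6 h had the highest mean for all 6, with Tpsab1 at 8.29 ± 0.32, Fcer1a at 6.59 ± 0.35 and Cpa3 at 10.16 ± 0.05 (SD, n = 3). F344 control glands at 30 d had the lowest mean for 5 genes, with Fcer1a at 4.46 ± 0.07, Cma1 at 8.24 ± 0.29 and Cpa3 at 8.48 ± 0.26 (SD, n = 3). For Tpsab1 the lowest were F344 NMU glands at 30 d, at 4.94 ± 0.12. Between these ends the steps were small. Of the 11 pairs of neighbours in the order, the arrays overlapped in 10 pairs for Ms4a2, Fcer1a and Hdc and in all 11 for Cpa3, Cma1 and Tpsab1. The step between neighbouring means was larger than both SDs in at most 2 of 11 pairs in each gene.

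All 6 genes were higher in Cop than in F344 glands after NMU. The comparison averages over the 3 times, with 9 arrays per strain. Tpsab1, the tryptase, had the largest log2 difference. Its values in Cop NMU glands were 8.0, 8.24 and 8.64 at 6 h, against 6.63, 5.60 and 5.93 in F344 NMU glands. At 1 d they were 6.40, 8.06 and 7.39 in Cop NMU glands, against 5.34, 6.16 and 5.98 in F344 NMU glands. At 30 d they were 6.33, 6.47 and 7.89 in Cop NMU glands, against 5.04, 4.98 and 4.81 in F344 NMU glands. Every Cop array lay above every F344 array of its time. Tpsab1 averaged 7.49 ± 0.88 in Cop and 5.61 ± 0.61 in F344 NMU glands (SD, n = 9 each), a difference of 1.88 ± 0.24 (SE) or 3.69-fold, with a limma adjusted p of 8.74e-07.

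The other proteases followed with smaller differences. Cma1, the chymase, had a lowest value of 9.01, a median of 9.85 and a highest value of 10.59 in Cop NMU glands, against 8.19, 8.57 and 9.52 in F344 NMU glands. The ranges of the strains overlapped, and it was 2.09-fold higher in Cop (limma log2 difference 1.06 ± 0.17 SE, adjusted p 2.92e-05). Cpa3 had a lowest value of 8.87, a median of 10.11 and a highest value of 10.60 in Cop NMU glands, against 8.87, 9.28 and 9.85 in F344 NMU glands. The lowest arrays of the 2 strains were at the same level, and the difference was 0.64 ± 0.16 (SE), with a limma adjusted p of 0.00469.

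Both IgE receptor chains were higher in Cop NMU glands. Fcer1a had a lowest value of 5.25, a median of 6.36 and a highest value of 7.26 in Cop NMU glands, against 4.56, 4.90 and 6.06 in F344 NMU glands, a 2.35-fold difference (limma adjusted p 0.000119). Ms4a2 had 5.46, 6.08 and 6.55 for these in Cop NMU glands, against 4.94, 5.37 and 5.69 in F344 NMU glands. Its difference was 0.70 ± 0.12 (SE) on the log2 scale (limma adjusted p 5.79e-05), and at each of the 3 times its Cop arrays lay above its F344 arrays. Tpsab1 and Ms4a2 shared this separation at all 3 times with 1.87% of probe sets. Hdc had 6.00, 6.57 and 6.95 for these in Cop NMU glands, against 5.87, 6.12 and 6.26 in F344 NMU glands, and differed by 0.42 (limma adjusted p 0.00165). In this comparison 11% of the 20748 tested probe sets were called higher and 22.8% were called in either direction, against 6 of 6 members called higher. The members' median log2 difference was 0.88, beside 0.01 over all tested probe sets. All 6 calls held whichever of the 18 arrays was left out. At 6 h alone 5 members were called, all but Hdc, against 16.4% of probe sets. At 1 d alone 2 were called, Ms4a2 and Tpsab1, against 7.52%, and at 30 d alone 4, Ms4a2, Fcer1a, Cma1 and Tpsab1, against 6.31%.

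**Figure D2:**
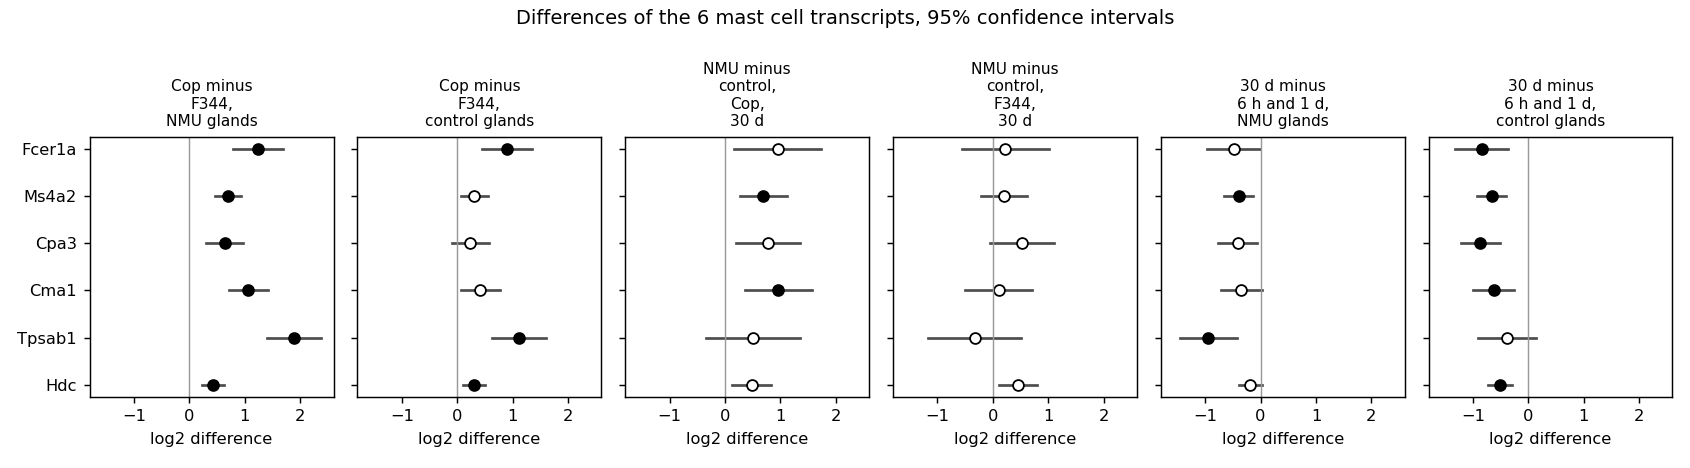
Log2 difference (horizontal axis) of the 6 genes (rows) in 6 comparisons (panels); points are limma estimates, bars are 95% confidence intervals, and filled points have an adjusted p under 0.05. All 6 points are filled for Cop minus F344 in NMU glands, and 5 are filled and below 0 for 30 d minus earlier in control glands.

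In control glands the strain difference was called for 3 of 6 members. The background was 13.1% of probe sets called higher and 26.1% in either direction. Tpsab1 had values of 7.22, 6.97 and 6.80 at 6 h in Cop control glands, against 5.42, 6.40 and 5.30 in F344 control glands. At 1 d it had 6.81, 6.49 and 6.33 in Cop control glands, against 6.07, 6.18 and 4.59 in F344 control glands. At 30 d it had 6.52, 6.11 and 6.54 in Cop control glands, against 5.30, 5.02 and 5.49 in F344 control glands. At each of the 3 times all Cop control arrays lay above all F344 control arrays, as in 1.82% of probe sets, and the difference was 1.12 ± 0.24 (SE) or 2.17-fold, with a limma adjusted p of 0.000878. Tpsab1 thus had non-overlapping strains in all 6 combinations of treatment and time, as did 0.819% of the tested probe sets. Of the other members Ms4a2, Fcer1a and Cma1 had this in 4 combinations, Hdc in 3 and Cpa3 in 1. The share of all probe sets that reach these smaller counts was not determined, so they are descriptions only.

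Fcer1a was 1.86-fold higher in Cop control glands (5.85 ± 0.65 in Cop and 4.95 ± 0.48 in F344, SD, n = 9 each; limma adjusted p 0.00307). Hdc differed by 0.30 ± 0.10 (SE), with a limma adjusted p of 0.0223, and this call was lost without F344 control replicate 3 at 6 h, Cop control replicate 2 at 6 h or Cop control replicate 3 at 30 d. The largest of those 3 limma adjusted p-values was 0.0586. The log2 differences of the members not called were 0.30 for Ms4a2 (limma adjusted p 0.0592), 0.41 for Cma1 (0.0737) and 0.24 for Cpa3 (0.312). The interval of the Cpa3 difference reached from -0.10 to 0.57. The members' median was 0.36, beside 0.02 over all tested probe sets. Within single times, Fcer1a and Tpsab1 were called at 6 h (limma adjusted p 0.0130 and 0.0279), where 19% of probe sets were called. No member was called at 1 d or at 30 d, where limma called 15.2% and 2.83% of probe sets. The unadjusted p was under 0.05 for Tpsab1 at both times and for Hdc at 30 d.

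Other cell types differed between the strains in the same arrays. Over all tested probe sets 11% were called higher and 11.8% lower in Cop NMU glands, and 13.1% and 12.9% in Cop control glands. Of 8 macrophage markers, 5 were called higher in Cop NMU glands and 2 in Cop control glands. Of 6 tested endothelial markers, 5 were called higher in Cop NMU glands and 2 in Cop control glands. Of 8 tested adipocyte markers, 7 were called lower in Cop NMU glands and 6 in Cop control glands. Of 11 mammary epithelial markers, none was called in NMU glands and 4 were called higher in Cop control glands. Skeletal muscle had the widest score range, in mean log2 deviation of its markers from their gene means. At 6 h and 1 d it lay between -3.58 and -0.76 in Cop control glands, against 1.79 to 2.79 in F344 control glands. At 30 d it was -1.04, -0.21 and -0.28 in Cop control glands, against -4.57, -0.42 and -3.29 in F344 control glands. Of 13 tested muscle markers 1 was called lower in Cop NMU glands and 4 in Cop control glands. Of 10 T and NK cell markers 1 was called lower in Cop NMU glands and 1 higher in Cop control glands, and no B cell marker of 4 tested was called in either. Of 9 fibroblast and matrix markers 3 were called higher in Cop NMU glands and 4 lower in Cop control glands. Their part in the mast cell gene differences was not tested.

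The difference between the strains in their response to NMU was tested directly and no member was called, at any single time or averaged over the 3 times. All 6 averaged differences were positive, with Tpsab1 at 0.77 (95% interval 0.08 to 1.46, limma adjusted p 0.571) and Cma1 at 0.65 (0.16 to 1.14, limma adjusted p 0.466). Tpsab1, Cma1 and Ms4a2 had an unadjusted p under 0.05 in the averaged test, and no member had one at a single time. Across all probe sets this averaged test called 0.12%, and the tests at 6 h, 1 d and 30 d called 0.877%, 0.207% and 0%. The larger number of members called in NMU than in control glands is therefore not shown to be a different response.

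In control glands the mast cell genes were lower at 30 d than at the earlier times. With treatment at 55 days of age, the 30 d glands came from older rats. Time after treatment and age cannot be told apart. Of the 6 members, 5 were called lower and Tpsab1 was not. In this comparison 16.4% of the tested probe sets were called lower and 30.1% were called in either direction. Cpa3, the carboxypeptidase, had values of 9.17, 8.38 and 9.27 at 30 d in Cop control glands and 8.28, 8.78 and 8.38 in F344 control glands. At 6 h Cpa3 had 9.64, 9.85 and 9.45 in Cop control glands and 9.49, 9.53 and 9.48 in F344 control glands. At 1 d it had 9.55, 9.68 and 9.67 in Cop control glands and 9.76, 9.71 and 9.10 in F344 control glands. All F344 values at 30 d lay below all earlier F344 values, and the same was true within Cop. How many of all probe sets separate in this way within a strain was not determined. Cpa3 averaged 8.71 ± 0.43 at 30 d (SD, n = 6), against 9.58 ± 0.19 earlier (SD, n = 12), a difference of -0.87 ± 0.17 (SE) with a limma adjusted p of 0.000395.

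Ms4a2 was at 5.33, 4.58 and 5.45 in Cop control glands at 30 d and at 4.81, 4.91 and 5.05 in F344 control glands. Its 12 earlier control values had a lowest of 5.38, a median of 5.60 and a highest of 6.27, and the log2 difference was -0.66 (limma adjusted p 0.000215). Fcer1a had a median of 4.50 at 30 d, with a range of 4.37 to 5.66, against an earlier median of 5.71 with a range of 4.58 to 6.69. It fell by 0.84 on the log2 scale (limma adjusted p 0.0073). Cma1 and Hdc fell by 0.62 and 0.51 (limma adjusted p 0.0104 and 0.000404). Tpsab1 had a difference of -0.38, with an interval of -0.90 to 0.13 and a limma adjusted p of 0.258. The members' median was -0.64, beside 0.02 over all tested probe sets, and the 5 calls held whichever of the 18 control arrays was left out. Within F344 4 members were called, Cpa3, Cma1, Ms4a2 and Hdc, where 27.1% of probe sets were, and within Cop 2, Ms4a2 and Hdc, where 7.5% were. In the same arrays 9 of 11 mammary epithelial markers were called higher and 5 of 8 adipocyte markers lower at 30 d, while no macrophage, T, NK or B cell marker was called. Skeletal muscle scores in F344 control glands were -4.57, -0.42 and -3.29 at 30 d, against 1.79 to 2.79 earlier, and in Cop control glands -1.04, -0.21 and -0.28 at 30 d, against -3.58 to -0.76 earlier. Of 13 tested muscle markers 1 was called lower at 30 d. Their part in the lower mast cell values was not tested. Between 1 d and 6 h no member was called in control glands by limma and none had an unadjusted p under 0.05, where 0.183% of probe sets were called.

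In NMU glands the spread of values at 30 d differed between the strains. It was taken as the SD of the mast cell score, the mean deviation of the 6 members from their gene means. In Cop NMU glands this SD was 0.71 at 30 d, 0.03 at 6 h and 0.45 at 1 d. In F344 NMU glands it was 0.05, 0.26 and 0.34. The Cop NMU arrays at 30 d were also unlike each other beyond these genes. Of all replicate pairs, their replicate 1 lay farthest from replicates 3 and 2 (root mean square difference 0.645 and 0.596). Over the NMU glands of both strains, 2 of 6 members were called lower at 30 d than earlier. Of all tested probe sets 29.2% were called lower and 49.5% in either direction. Tpsab1 averaged 5.92 ± 1.20 at 30 d (SD, n = 6), against 6.86 ± 1.14 earlier (SD, n = 12), a difference of -0.94 (limma adjusted p 0.00317). Ms4a2 differed by -0.39 (limma adjusted p 0.0112), a call lost without Cop NMU replicate 2 at 30 d. Cpa3 missed the threshold at -0.41 (limma adjusted p 0.0501), and Hdc was at -0.19 with an interval of -0.40 to 0.02. The count ranged from 1 to 6 as each array was left out in turn. This comparison was added after the control comparison had been seen.

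NMU was set against the control treatment within each strain and time. At 30 d in Cop glands, Cma1 and Ms4a2 were called higher, 2 of 6 members, where 4.41% of probe sets were called higher and 9.9% in either direction. Cma1 had values of 9.68, 9.01 and 10.59 in Cop NMU glands, against 8.92, 8.51 and 8.98 in Cop control glands. All NMU values lay above all control values, and the log2 difference was 0.96 ± 0.30 (SE) or 1.94-fold (limma adjusted p 0.0375). Ms4a2 had 5.59, 5.46 and 6.39 in Cop NMU glands, against 5.33, 4.58 and 5.45 in Cop control glands, again with no overlap, as in 8.18% of probe sets. Its difference was 0.69 ± 0.21 (SE), with a limma adjusted p of 0.0319. The other 4 members were not called: Fcer1a differed by 0.95 (limma adjusted p 0.112), Cpa3 by 0.78 (0.0772), Hdc by 0.48 (0.0669; 0.0227 after quantile normalization) and Tpsab1 by 0.51 (0.480). The members' median was 0.73, beside -0.01 over all tested probe sets.

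These calls rested on few arrays. Replicate 3 of the Cop NMU glands at 30 d was highest of the 3 for all 6 members, with Fcer1a at 7.26 and Cpa3 at 10.60. Replicate 2 of the Cop control glands at 30 d was lowest of its group for all 6. Ms4a2 was no longer called without either of these 2 arrays. Cma1 was no longer called without replicate 3 of the NMU glands or without any 1 of the 3 control arrays. The count over the members ranged from 0 to 5 as each of the 6 arrays was left out. With the 6 arrays fitted alone no member was called, and with the replicate number as a block 5 were called. The replicate numbers were not taken to pair NMU and control arrays at 30 d. Correlations of deviations between same-numbered arrays were 0.059, -0.055 and -0.351 in Cop at 30 d. The block fit is therefore no check of these calls.

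Other cell types moved in the same 6 arrays. Scores were formed as the mean deviation of a list from its gene means, in log2 units, over 6 members for the mast cell score. Replicate 3 of the Cop NMU glands at 30 d had a mast cell score of 1.20, a macrophage score of 1.21, a B cell score of -3.19 and a mammary epithelial score of -2.08. Replicate 2 had -0.20 for mast cells and -3.33 for B cells, and replicate 1 had 0.25 for mast cells, 1.30 for B cells and -4.32 for skeletal muscle. The Cop control glands at 30 d had B cell scores of 1.30, 0.78 and 0.79, beside mast cell scores of -0.12, -0.77 and -0.04. In Cop NMU glands at 30 d, 6 of 11 mammary epithelial markers were called lower and 5 of 6 endothelial markers higher. The B cell markers Ms4a1, Cr2 and Cd79b were called lower, with log2 differences of -3.77, -3.20 and -3.00, and Blk at -0.81 was not called. Over all tested probe sets 4.41% were called higher and 5.48% lower. Their part in the mast cell values was not tested.

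Over both strains at 30 d, 3 members were called higher after NMU, where 8.15% of probe sets were called higher and 21% in either direction. Hdc had values of 6.47, 6.00 and 6.70 in Cop NMU glands, against 5.97, 5.63 and 6.13 in Cop control glands. It had 6.06, 6.09 and 5.87 in F344 NMU glands, against 5.47, 5.61 and 5.56 in F344 control glands. The F344 groups did not overlap and the Cop groups did. The mean difference was 0.47 ± 0.12 (SE), with a limma adjusted p of 0.00579, and it was called whichever of the 12 arrays was left out. Cpa3 differed by 0.65 (limma adjusted p 0.0210) and Ms4a2 by 0.45 (limma adjusted p 0.0284). The Cpa3 and Ms4a2 calls were lost without F344 control replicate 1, Cop control replicate 2 or Cop NMU replicate 3. The Ms4a2 call was also lost without F344 NMU replicate 1 or F344 NMU replicate 2. The count ranged from 1 to 5 as arrays were left out. In the same comparison 5 of 6 tested endothelial markers, 5 of 8 adipocyte markers, 5 of 9 fibroblast and matrix markers and 3 of 8 macrophage markers were called higher after NMU. Of T and NK cell markers 8 of 10 were called lower, of mammary epithelial markers 6 of 11 and of B cell markers 3 of 4. No muscle marker of 13 was called, with scores of 1.57, 1.19 and -0.24 in F344 NMU glands, against -4.57, -0.42 and -3.29 in F344 control glands. Endothelial scores were 0.09, 0.16 and 0.10 in F344 NMU glands, against -0.35, -0.20 and -0.42 in F344 control glands. Their part in the mast cell values was not tested. These comparisons use the same 30 d control arrays as the comparison of 30 d with earlier control glands, in which those arrays were low.

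In F344 glands alone no member was called at any time by limma. At 30 d, 3.29% of probe sets were called, and Hdc differed by 0.46 (limma adjusted p 0.127) with all NMU above all control arrays and an unadjusted p under 0.05. Cpa3 and Fcer1a also had all 3 NMU arrays above all control arrays at 30 d, as did 9.09% of probe sets, with differences of 0.52 and 0.22. These Fcer1a values, 4.37 to 4.81, were among the lowest of that gene, which lay at or below the filter level of their arrays. Tpsab1 was at 5.04, 4.98 and 4.81 in F344 NMU glands at 30 d, against 5.30, 5.02 and 5.49 in F344 control glands, a difference of -0.33 with an interval of -1.17 to 0.52. At 6 h and 1 d the F344 members lay between -0.17 and 0.35, no member had an unadjusted p under 0.05, and 0.622% and 0.983% of probe sets were called.

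At 6 h in Cop glands no member was called by limma, where 6.57% of probe sets were called, and 2 members had an unadjusted p under 0.05. Tpsab1 had 8.0, 8.24 and 8.64 in Cop NMU glands, against 7.22, 6.97 and 6.80 in Cop control glands. The groups did not overlap, and the difference was 1.30 ± 0.41 (SE) or 2.46-fold, with a limma adjusted p of 0.0562. Over the alternatives the call changed: it was made after quantile normalization (limma adjusted p 0.0488), with the filter at the 60th percentile (0.0461) and with the 6 arrays fitted alone (0.00166). Cma1 had 10.15, 9.85 and 9.98 in Cop NMU glands, against 9.23, 9.55 and 9.31 in Cop control glands, a difference of 0.63 (limma adjusted p 0.238, and 0.00769 with the 6 arrays fitted alone). Cpa3 had 10.17, 10.21 and 10.11 in Cop NMU glands, against 9.64, 9.85 and 9.45 in Cop control glands, a difference of 0.52 (limma adjusted p 0.338). All 3 proteases had every NMU array above every control array, as did 15.1% of probe sets. The receptor chains and Hdc overlapped between the groups, with differences of 0.10 to 0.19. In the same 6 arrays the fibroblast and matrix scores were 0.51, 0.57 and 0.62 in Cop NMU glands, against -0.47, -0.39 and -0.21 in Cop control glands, and 7 of 9 markers were called higher. Macrophage scores were 0.16, 0.32 and 0.49 in Cop NMU glands, against -0.39, -0.04 and -0.29 in Cop control glands, with 2 of 8 markers called higher. Scores of T and NK cells were -0.03, -1.23 and -1.20 in Cop NMU glands, against 1.00, 0.48 and 0.94 in Cop control glands, with 4 of 10 markers called lower. None of these 3 scores overlapped between the groups. Skeletal muscle scores were -0.39, 0.88 and 0.93 in Cop NMU glands, against -1.04, -3.58 and -0.96 in Cop control glands, with no marker of 13 called. Their part in the protease values was not tested.

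At 1 d in Cop glands all 6 differences were positive, between 0.34 and 0.74, and none was called by limma, where 0.762% of probe sets were called. Ms4a2 had 6.00, 6.55 and 5.98 in Cop NMU glands, against 5.56, 5.74 and 5.63 in Cop control glands, with no overlap, as in 7.44% of probe sets, and a difference of 0.53 (limma adjusted p 0.288). Ms4a2 and Hdc had an unadjusted p under 0.05 there. Averaged over both strains no member was called at 6 h, where 6.81% of probe sets were called, or at 1 d, where 1.94% were, and only Tpsab1 at 6 h had an unadjusted p under 0.05 in these 2 tests. The largest of those averaged differences was that of Tpsab1 at 6 h, 0.82 with a limma adjusted p of 0.0873.

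The members varied together from array to array within groups. After each group's mean was taken off, all 15 pairs of members were positively correlated over the 36 arrays, with Pearson's r of 0.57 to 0.91 and Spearman's rho of 0.47 to 0.84. Cpa3 and Cma1 had the highest values, r = 0.906 and rho = 0.838. Hdc with Tpsab1 had the lowest, r = 0.573 and rho = 0.474. The largest permutation p over the 15 pairs, adjusted by Benjamini-Hochberg, was 0.0114 for r and 0.0198 for rho, with values exchanged within groups. Without the 2 arrays farthest from the median, r ranged from 0.426 to 0.850. The pairs share the arrays and their RNA, so they are not independent of each other.

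**Figure D3:**
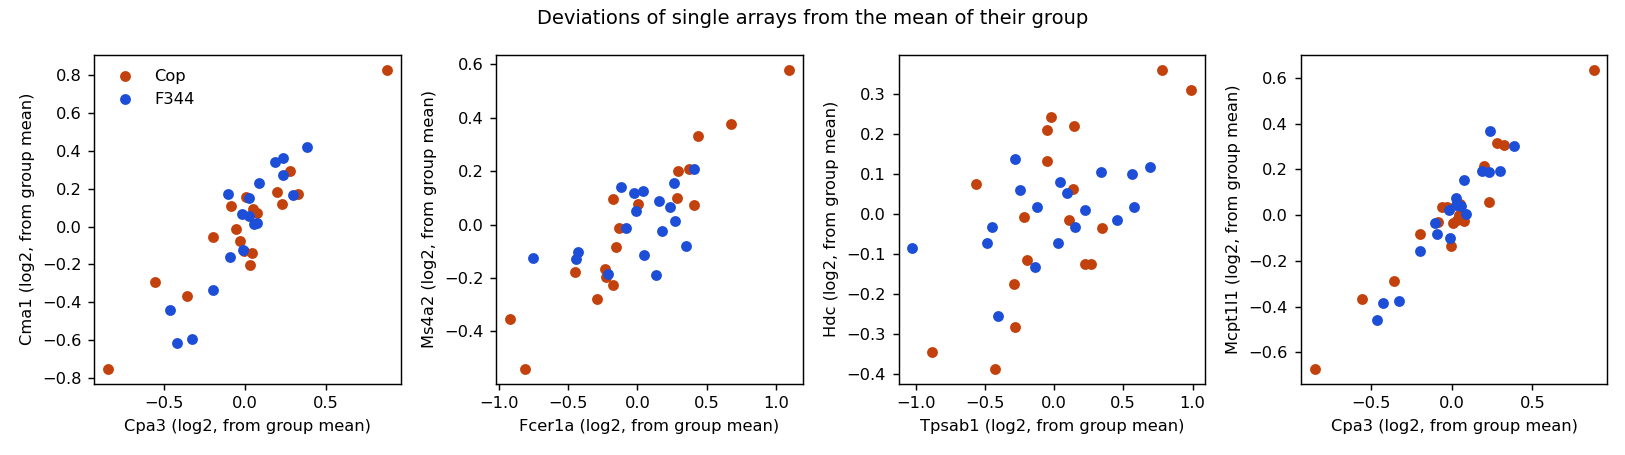
Deviation of each of 36 arrays from the mean of its own group, in log2 units on both axes, for 3 pairs of members and for Mcpt1l1 against Cpa3; points are arrays, with Cop in orange and F344 in blue. Cpa3 and Cma1 lie along a line (r = 0.906), and Tpsab1 and Hdc scatter more widely (r = 0.573).

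Genes outside the 6 whose pattern was most like theirs were found by Pearson's correlation with the mast cell score over the 36 arrays, among 15934 probe sets. Mcpt1l1, a rat mast cell protease, was first with 0.93, and Tpsb2, the second tryptase gene, was next with 0.89. Milr1, an inhibitory receptor of mast cells known as allergin, followed with 0.87, and differed between Cop and F344 by 1.33 in NMU glands and by 1.14 in control glands. Bnip2 and Gstm1 reached 0.84, Tmem106a 0.82 and Gata2 0.80, and Rab22a, Uggt2 and Zfp521 complete the 10. The 99th percentile of all probe sets was 0.669. As deviations from group means, Mcpt1l1 (0.92) and Tpsb2 (0.82) again came first, and Milr1 was at 0.69. The others of that 10 were Ctsb, Castor1, Folr2, Gnpda1, Glb1, Lgmn and Gpx1, so that 3 genes were shared between the orders. The arrays of a group share strain, treatment and time, and these likenesses are descriptions.

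**Figure D4:**
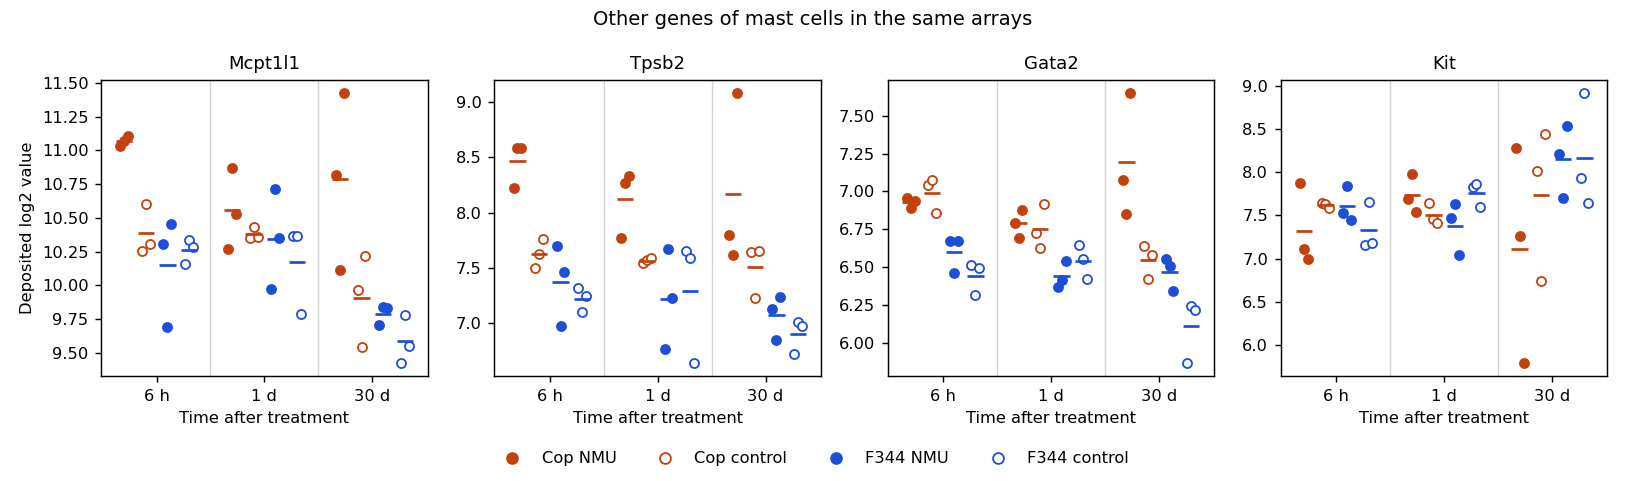
Deposited log2 value (vertical axis) of Mcpt1l1, Tpsb2, Gata2 and Kit by time after treatment (horizontal axis); points are arrays, with Cop in orange and F344 in blue, NMU filled and control open, and short bars are group means (n = 3). Mcpt1l1, Tpsb2 and Gata2 are higher in Cop than in F344 NMU glands, and Kit has no called difference between them.

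Among further mast cell proteases, 8 of 15 listed genes were on the array and 2 passed the filter. Mcpt1l1 was higher in Cop than in F344 NMU glands by 0.71 (limma adjusted p 0.000287) and differed by 0.22 in control glands (limma adjusted p 0.259). It fell by 0.55 on the log2 scale at 30 d in control glands (limma adjusted p 0.00464), and in Cop glands at 30 d it was higher after NMU by 0.88 (limma adjusted p 0.0194). Tpsb2 was higher in Cop NMU glands by 1.03 (limma adjusted p 1.9e-05), and its control difference of 0.43 missed the threshold (limma adjusted p 0.0502). Dim probe sets included those of Mcpt8, in mice a protease of basophils. Of 11 listed eosinophil and basophil genes, 9 were on the array and 3 were tested. Ccl11, which attracts eosinophils, was the 1 of them called between the strains, higher in Cop by 1.17 in NMU glands (limma adjusted p 2.36e-06) and by 0.56 in control glands (limma adjusted p 0.00949). Over all tested probe sets 22.8% were called in either direction in NMU glands and 26.1% in control glands. Prg2 and Epx, granule proteins of eosinophils, were dim and not tested. Group means of Epx lay between 3.90 and 4.18. Those of Prg2 lay between 4.50 and 4.92 in Cop glands and between 3.88 and 4.35 in F344 glands, and at each time and treatment the Cop mean was the higher.

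Of 9 tested genes of mast cell identity and growth, 3 were called higher in Cop than in F344 NMU glands, Gata2, Tal1 and Il1rl1, and none lower. Over all tested probe sets 11% were called higher and 11.8% lower in that comparison. Gata2, a transcription factor of mast cell precursors, was higher in Cop by 0.47 in NMU glands (limma adjusted p 9.03e-05) and by 0.40 in control glands (limma adjusted p 0.000539). It fell by 0.36 on the log2 scale at 30 d in control glands (limma adjusted p 0.00269), and was higher after NMU in Cop glands at 30 d by 0.65 (limma adjusted p 0.00606). Tal1, a transcription factor of blood cells, was higher in Cop by 0.40 in NMU glands (limma adjusted p 0.000401) and by 0.42 in control glands (limma adjusted p 0.000265). Il1rl1, the cytokine receptor called ST2, was higher in Cop NMU glands by 0.51 (limma adjusted p 0.00126) and after NMU in Cop glands at 6 h by 0.69 (limma adjusted p 0.0316). Which cells of the gland made the Gata2, Tal1 and Il1rl1 RNA was not measured. The tested endothelial markers other than Kdr were also called higher in Cop NMU glands, and the part of other cell types in these 3 genes was not tested. In control glands, where 13.1% of probe sets were called higher, the genes called higher in Cop were Gata2, Tal1 and Kitlg. Kitlg, the growth factor of mast cells, differed by 0.22 (limma adjusted p 0.0341). Kit, the receptor for it, is also made by epithelial cells and melanocytes. It differed by -0.32 between Cop and F344 NMU glands (limma adjusted p 0.377) and by -0.13 in control glands (0.750). In control glands at 30 d against earlier, Kit differed by 0.39 (limma adjusted p 0.260) and Kitlg was higher by 0.30 (limma adjusted p 0.00591).

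Of 11 tested genes of IgE receptor signalling, 8 were called higher in Cop than in F344 control glands and 3 in NMU glands, with none lower in either. Over all tested probe sets 13.1% were called higher in control glands and 11% in NMU glands. Fcer1g, the gamma chain of the receptor, was higher by 0.42 in control glands (limma adjusted p 0.000897) and by 0.40 in NMU glands (limma adjusted p 0.00155). Syk, the kinase that the gamma chain recruits, was higher by 0.59 in control glands (limma adjusted p 0.000987) and differed by 0.34 in NMU glands (0.0531). Plcg1, a phospholipase of the same pathway, was higher by 0.34 in control glands and by 0.31 in NMU glands. Fcgr2b, an inhibitory receptor for IgG, was higher in NMU glands by 0.42. After NMU in Cop glands at 30 d 1 gene of this list was called higher, Fcer1g by 0.56 (limma adjusted p 0.0227), and 1 was called lower. In that comparison 4.41% of probe sets were called higher and 5.48% lower. Other leukocytes also use Fcer1g, Syk and Plcg1.

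Of 8 tested genes of granules, histamine and amine handling, the control comparison called 2 higher and 2 lower in Cop. Over all tested probe sets it called 13.1% higher and 12.9% lower, and the lists were not tested as sets. Srgn, the serglycin core protein, was higher by 0.26 (limma adjusted p 0.0446), and Maoa, which degrades amines, had a difference of -0.40 (limma adjusted p 0.00424). In NMU glands 1 gene was called higher in Cop, Hs3st1, a heparan sulfate sulfotransferase, by 0.40, and 1 was called lower, the histamine receptor gene Hrh3. Over all tested probe sets 11% were called higher and 11.8% lower there. At 30 d in control glands none was called higher and 3 were called lower, Maoa, Hrh3 and Hs3st1, with Maoa at -0.84. Of all tested probe sets 16.4% were called lower there. Of 7 tested genes of lipid mediator synthesis, 1 was called higher in Cop NMU glands, against the same 11% of probe sets. This was Ptgs1, a prostaglandin-forming cyclooxygenase, higher by 0.37 (limma adjusted p 0.00399). Ptgs1 was also the 1 gene of this list called after NMU in Cop glands at 30 d, higher by 0.63 (limma adjusted p 0.0149). In that comparison 4.41% of probe sets were called higher.

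Over the 36 arrays the mast cell score had a Pearson's r of 0.54 with a macrophage score, 0.49 with an endothelial score, -0.29 with a mammary epithelial score and 0.03 with a skeletal muscle score. As deviations from group means these were 0.59, 0.40, -0.41 and 0.28. The scores share arrays and RNA, and the values are descriptions.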

How the data were processed

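Gene expression was measured with Affymetrix arrays in 36 rat mammary gland samples. Per the labels, RNA came from a Qiagen RNAEasy Maxi procedure and 1 ug of total RNA was used to make biotin-labelled cRNA. The submitters' processing notes name GCOS without a version, and do not say how probe signals were summarized or normalized. The deposited log2 values were used as the authors gave them, between 2.46 and 14.3. Probe sets were named from the platform annotation, and 57 control probe sets were left out. A probe set was tested if above the 40th percentile of its array on at least 3 arrays, which kept 20748 and left 10294. A model with 12 group means took in every array, using limma 3.58.1 under R 4.3.3 (trend and robust moderation, two-sided), and p-values were adjusted by Benjamini-Hochberg within each of 18 comparisons, 2 of them added after seeing the data. Calls were made below 0.05. On simulated data for NMU against control in Cop glands at 6 h (20748 probe sets), 84% of changes of 1 log2 unit and 99% of changes of 2 were recovered, and 5.67% of calls were false. The simulated noise was independent between probe sets, while the members here varied together, so these rates need not hold for the real arrays.

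The brightest probe set stood for each gene. All probe sets of the 6 genes are named, and of each further list at most 4 genes of smallest adjusted p, with Kit, Kitlg, Gata2, Fcer1g, Tpsb2 and Srgn. The members and lists were chosen with earlier results of these data known. Replicate numbers were checked as pairs of NMU and control arrays by correlating deviations from group means. In Cop at 6 h the 3 correlations were 0.114, 0.142 and 0.435, and at 1 d 0.202, 0.424 and 0.315, all over 0.1. On this alone the numbers were taken to pair those arrays, and not at other times or in F344. The labels do not say that equal numbers mark pairs, and the main fit used no pairing. Of all replicate pairs, the first 2 F344 control arrays of 1 d lay closest together (root mean square difference 0.163, next 0.232) and were kept as 2 arrays. Alternatives were other filters, a floor, quantile normalization, a replicate block, single times or strains, fits of the compared arrays alone and leaving out each array.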

Additional observations from a re-analysis of the deposited data

How the results depend on the processing

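No call of a member changed direction under any alternative: of 508 alternative values of 21 calls, 466 kept direction and threshold and 42 kept direction without passing. For NMU against control in Cop at 30 d, where 2 members were called, 3 were called after quantile normalization (Hdc added), 1 with no filter, 1 with the filter at the 60th percentile, which left 5 members tested and Ms4a2 untested, 5 with the replicate block and 0 with the 6 arrays alone. For Cop at 6 h, where 0 were called, quantile normalization gave 1, the filter at the 60th percentile 1 and the 6 arrays alone 3. The replicate block gave 1 for F344 at 30 d, against 0, and 4 for both strains at 30 d, against 3 (Fcer1a added, limma adjusted p 0.0473). At 30 d the numbers were not taken to pair the arrays, so the block counts at that time are no check of the calls. In Cop at 6 h and 1 d, where the numbers were taken to pair the arrays, the block changed no member call. For Cop against F344, control glands gave 0 at 1 d alone and 0 at 30 d alone, against 3, and NMU glands 2 at 1 d alone, against 6. For 30 d against earlier, Cop controls alone gave 2, against 5, and NMU glands gave 1 in F344 alone and 0 in Cop alone, against 2. Leaving out 1 array gave 0 to 5 calls for NMU in Cop at 30 d, 1 to 5 for both strains at 30 d, 0 to 1 for both strains at 6 h, 2 to 4 for Cop against F344 controls and 1 to 6 for 30 d against earlier NMU glands, and no other count changed. The causes of these changes were not tested. For the genes most like the mast cell score, 3 of 10 were shared between values and deviations from group means. Scaling alternatives shifted the median of all probe sets by under 0.1. Dim signals limit Fcer1a, Ms4a2 and Tpsab1, and 3 arrays a group limit every single-time comparison.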
